A study of Mus musculus with 6 samples.

Results

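The genes described here encode inhibitors of matrix-degrading proteases: the tissue inhibitors of metalloproteinases Timp1, Timp2, Timp3 and Timp4, the membrane-anchored inhibitor Reck and the plasma protease trap A2m (alpha-2-macroglobulin). They were taken by gene symbol, and all 6 had a row among the 18749 gene rows of the count files. Aortic RNA was sequenced from Apoe-/- hosts in 2 groups of 3 libraries. The hosts had received marrow either of Apoe-/-Sept2C111A donors, here called Sept2C111A recipients, or of Apoe-/- donors, called control recipients. Every mouse thus lacked Apoe, in host and in marrow, and every mouse was infused with Ang II (angiotensin II) for 28 days. The altered septin-2 could be carried only by cells derived from the donor marrow, while the host's own wall cells kept the unaltered gene, and the share of marrow that was replaced is not given in the sources used here. Ages are likewise not given, and whether each library came from 1 mouse is not stated beyond 3 per group, so p-values measure the spread between these libraries.

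TIMPs are small secreted proteins that block metalloproteinases by laying their first mature residue, a cysteine, across the catalytic zinc. TIMP1 is strongly induced by cytokines and binds proMMP9, TIMP2 also takes part in the activation of MMP2 by MMP14, TIMP3 is held in the matrix and also blocks ADAM17 and aggrecanases, and TIMP4 has a narrow distribution that includes heart and fat. RECK holds several metalloproteinases in check at the cell surface, and A2M traps proteases of all classes for clearance by LRP1. In aneurysms of the aorta, the balance of metalloproteinases and their inhibitors is a long-standing subject because elastin and collagen of the wall are lost.

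The coding stretch that begins the mature inhibitor is shown for the TIMPs because it is the part that meets the protease. Each line gives 30 coding bases of the principal GENCODE vM21 transcript, read 5′ to 3′, with capitals on the pair of cysteine codons that open the mature protein.
Timp1: TGTagcTGTgccccaccccacccacagaca
Timp2: TGCagcTGCtccccggtgcacccgcaacag
Timp3: TGCacaTGCtctcccagccatccccaggat
Timp4: TGCagcTGTgcgcctgcgcacccccagcag
From this point on each TIMP had 12 cysteine codons. The coding regions specify 205 residues for Timp1, 220 for Timp2, 211 for Timp3 and 224 for Timp4. Aligned as translated, Timp1 shared 40.1% to 41.0% of its aligned residues with the other TIMPs, and Timp2 and Timp4 were the closest pair at 48.9%. No expression value was used to choose these sequences.

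The TIMP genes lie inside, or around, other genes. On mm10, Timp1 (chromosome X, 20870166 to 20874735) lies within Syn1, Timp3 (chromosome 10, 86300372 to 86349506) within Syn3 and Timp4 (chromosome 6, 115241892 to 115252205) within Syn2, each on the opposite strand from its synapsin host. Timp2 (chromosome 11, 118301069 to 118355740) surrounds Cep295nl on the same strand. Reck is on chromosome 4 (43875530 to 43944806) and A2m on chromosome 6 (121635376 to 121679227). Annotated exons shared 0 bases between Timp1 and Syn1 and 0 between Timp2 and Cep295nl, 90 of 5894 between Timp4 and Syn2 (1.53%), and 1733 of 8144 between Timp3 and Syn3 (21.3%). The strand setting of the counting is not given in the sources used here, so reads of those shared bases cannot be told apart. Syn3 stood at 2.49 to 3.28 CPM in Sept2C111A recipients and 1.95 to 2.23 CPM in control recipients, against 1105 CPM or more of Timp3 in every library.

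The expected counts summed to between 17082719 and 20494928 per library, and levels are given as CPM, the count scaled to a common library size, on library sizes scaled by TMM, the edgeR scaling. Summed CPM of 8 smooth muscle markers, 15643 to 23409 in Sept2C111A recipients and 5859 to 18347 in control recipients, showed that the muscle genes of an artery wall were present, while 4 hepatocyte markers summed to 2.61 CPM at most. Libraries of control recipients 1 and 3 lay apart from the other 4 on principal components 1 and 2. Over all 14466 genes tested, edgeR's quasi-likelihood test passed 0 at an adjusted p under 0.05 (0%), with 2170 at an unadjusted p under 0.05, DESeq2 passed 575 of the 14398 it gave an adjusted p (3.99%), and limma-voom with library quality weights passed 0. With single libraries left out, DESeq2 passed from 133 genes (without Sept2C111A recipient 3) to 1769 (without control recipient 2). The groups did not overlap for 23.1% of the tested genes.

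Timp1 was the inhibitor that was lower in Sept2C111A recipients, and Timp4 the one that lay wholly above control. Timp1 was 4.69-fold lower and Timp4 2.39-fold higher, and for both genes the 3 libraries of one group lay wholly on one side of the other group. Timp2, Timp3 and Reck overlapped between the groups, and A2m was scarcely detected. Of the 5 members tested, edgeR passed 0 after adjustment and 2 at an unadjusted p under 0.05, Timp4 higher and Timp1 lower (background 15% of tested genes, 6.17% higher and 8.83% lower). DESeq2 passed the same pair (background 1.1% higher and 2.9% lower), and the same pair had groups that did not overlap (background 11.2% higher and 11.9% lower). The log2 fold change was above 0 for 4 members and below 0 for 1, as it was for 50.1% and 49.9% of all tested genes. The members' median log2 fold change was 0.43, against 0.000925 over all tested genes.

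**Figure D1:**
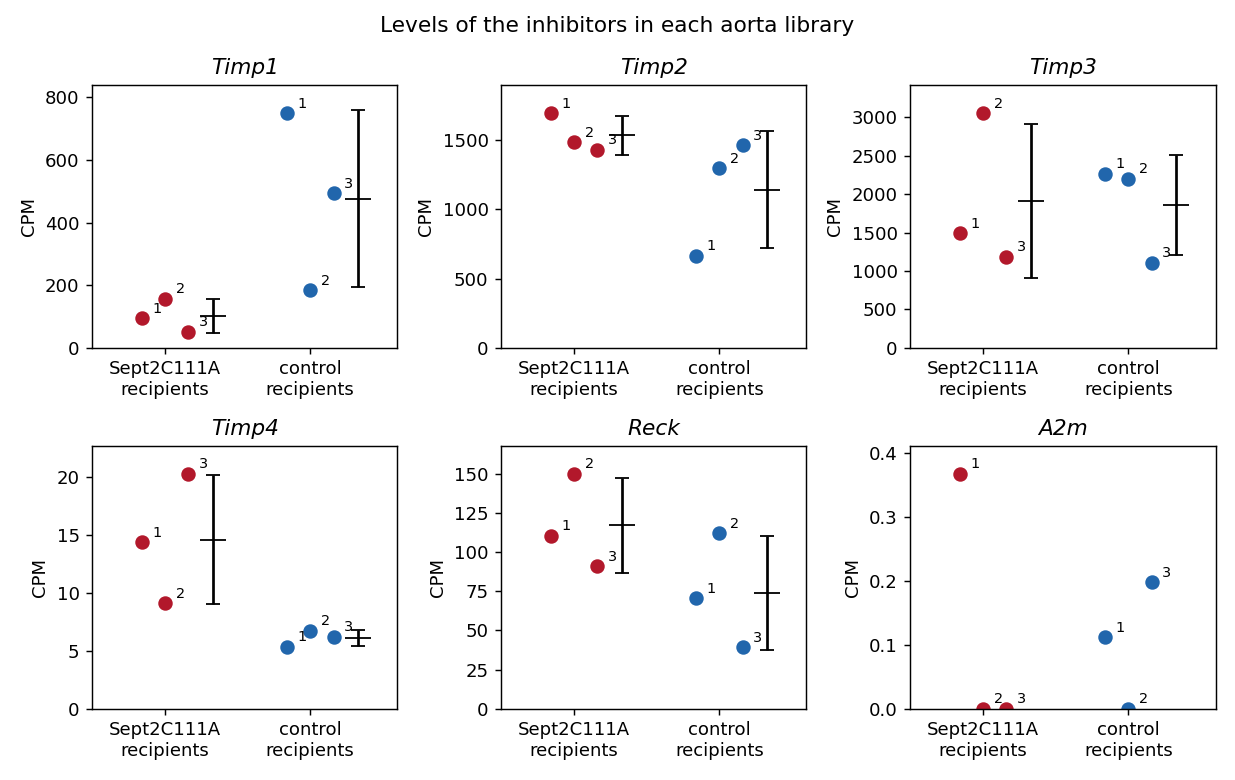
CPM of the 6 genes in each library (points, numbered by recipient), with mean and SD of the 3 libraries beside them except for A2m. All Sept2C111A points lie below all control points for Timp1 and above them for Timp4, and the groups overlap for Timp2, Timp3 and Reck.

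Timp1 stood at 95.6, 158 and 51.3 CPM in Sept2C111A recipients 1, 2 and 3, against 750, 184 and 494 CPM in control recipients 1, 2 and 3. The highest Sept2C111A library and the lowest control library are neighbours, 158 and 184 CPM, and most of the distance came from control recipients 1 and 3. The means were 102 ± 53.4 CPM in Sept2C111A recipients and 476 ± 283 CPM in control recipients (SD, n = 3 each), or -2.23 on the log2 scale (SE 0.62, edgeR adjusted p = 0.316, DESeq2 adjusted p = 0.0103). With single libraries left out, the log2 fold change ran from -2.69 to -1.73, the weakest without control recipient 1, and DESeq2 called Timp1 in 3 of those 6 fits. With control recipients 1 and 3 both left out, it was -0.86 (edgeR adjusted p = 0.925), from 1 control library. It was not called without control recipient 1 (adjusted p = 0.0984), Sept2C111A recipient 1 (0.0982) or Sept2C111A recipient 3 (0.125), all by DESeq2.

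Among controls, the libraries rich in Timp1 were rich in neutrophil genes, and in erythroid genes as well. The 6 neutrophil markers summed to 28.3, 15.4 and 19.2 CPM in Sept2C111A recipients 1, 2 and 3, against 2904, 87.7 and 327 CPM in control recipients 1, 2 and 3. Of the 5 markers tested, 5 were lower, all by DESeq2 too (2.9% of genes tested were lower by DESeq2). Ly6g, a defining marker, did not pass the filter on low counts. It was at 0 in the Sept2C111A libraries and in control recipient 2, and had 31 and 3 counts in control recipients 1 and 3. Control recipients thus had the same order for Timp1 and for the neutrophil sum. Among Sept2C111A recipients the library with the most Timp1 had the lowest neutrophil sum. This order among controls was not particular to neutrophil genes. The 5 erythroid markers summed to 1683, 70.6 and 1107 CPM in control recipients 1, 2 and 3. In Sept2C111A recipients 1, 2 and 3 the erythroid sum was 708, 202 and 221 CPM, overlapping with controls and again lowest in recipient 2. The part of neutrophils or of erythroid cells in the level of Timp1 was not tested. In whole tissue, fewer cells of a type and less RNA per cell cannot be told apart.

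Timp4 stood at 14.4, 9.12 and 20.3 CPM in Sept2C111A recipients 1, 2 and 3, against 5.36, 6.73 and 6.23 CPM in control recipients 1, 2 and 3. The controls lay close together and below the lowest Sept2C111A library. The means were 14.6 ± 5.60 CPM in Sept2C111A recipients and 6.11 ± 0.694 CPM in control recipients (SD, n = 3 each), or 1.26 on the log2 scale (SE 0.32, edgeR adjusted p = 0.316, DESeq2 adjusted p = 0.0193). Timp4 rested on 165 to 365 counts per library in Sept2C111A recipients and 96 to 128 in control recipients, so its counting error was not negligible. The exact 95% Poisson interval, which covers counting error only, was 7.78 to 10.6 CPM in Sept2C111A recipient 2 and 5.62 to 8.00 CPM in control recipient 2, the nearest pair of libraries, and these intervals overlapped. When single libraries were dropped, DESeq2 called Timp4 without control recipient 2 (adjusted p = 0.0253) and without Sept2C111A recipient 2 (adjusted p = 0.000219). It did not call Timp4 without control recipient 1 (adjusted p = 0.102), control recipient 3 (0.0843), Sept2C111A recipient 1 (0.155) or Sept2C111A recipient 3 (0.212).

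Timp4 is a gene of heart and fat, and markers of both varied between the libraries. The 5 cardiac muscle markers summed to 26.7, 35.5 and 1605 CPM in Sept2C111A recipients 1, 2 and 3, against 225, 19.5 and 9.59 CPM in control recipients 1, 2 and 3. Myh6, the main myosin heavy chain of the adult mouse heart, alone reached 856 CPM in Sept2C111A recipient 3, the library richest in Timp4. Without that library the log2 fold change of Timp4 was 0.96 by edgeR, and DESeq2 did not call Timp4 (adjusted p = 0.212). The 8 adipocyte markers summed to 5244, 2256 and 3798 CPM in Sept2C111A recipients 1, 2 and 3, against 3079, 2269 and 945 CPM in control recipients 1, 2 and 3, and the 4 brown adipocyte markers to 850, 341 and 1675 CPM against 518, 344 and 6.18 CPM in the same order. All 8 adipocyte markers and all 4 brown adipocyte markers had a log2 fold change above 0, with medians of 1.07 and 1.37, 0 passed by either tool, and the groups overlapped in both sums. Within the Sept2C111A recipients Timp4 and the brown adipocyte sum had the same order, whereas control recipient 3, with the lowest brown adipocyte sum, lay between the other controls in Timp4. The 8 adventitial fibroblast markers summed to 6037 to 7465 CPM in Sept2C111A recipients and 3491 to 4564 CPM in control recipients, without overlap. Of the 8, 6 had a log2 fold change above 0 and 2 below, with a median of 0.52. DESeq2 passed 3 as higher, Dcn, Cd34 and Clec3b (1.1% of genes tested were higher by DESeq2). Dcn alone stood at 3101, 2516 and 4489 CPM in Sept2C111A recipients 1, 2 and 3. In control recipients 1, 2 and 3 Dcn stood at 1322, 1763 and 1661 CPM. The part of fat, heart or adventitial tissue in the level of Timp4 was not tested.

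Timp1 and Timp4 ordered the 6 libraries in exactly opposite ways. Timp1 ran, from the lowest, through Sept2C111A recipients 3, 1 and 2 and then control recipients 2, 3 and 1, and Timp4 ran through the same sequence from the highest. Within a library, free of any scaling between libraries, the log2 ratio of Timp1 to Timp4 counts was 2.73, 4.11 and 1.34 in Sept2C111A recipients 1, 2 and 3, against 7.12, 4.77 and 6.30 in control recipients 1, 2 and 3. Every Sept2C111A value was below every control value, with means of 2.72 ± 1.39 in Sept2C111A recipients and 6.06 ± 1.19 in control recipients (SD, n = 3 each), a difference of -3.34. This separation was fixed in advance, since Timp1 lay wholly below and Timp4 wholly above control, and it is not a further result. No p is given, because this pair stands at the extremes of the set. The order among the controls carries little weight for Timp4, whose 95% counting intervals overlapped among the 3 control libraries.

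Timp2 was abundant everywhere. It stood at 1696, 1484 and 1430 CPM in Sept2C111A recipients 1, 2 and 3, against 667, 1299 and 1464 CPM in control recipients 1, 2 and 3. Control recipient 1 alone was low, and the other 5 libraries lay between 1299 and 1696 CPM. The difference was 0.43 on the log2 scale (SE 0.34, edgeR adjusted p = 0.533) and 0.16 without control recipient 1. Control recipient 1 had the least Timp2 and the most Timp1.

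Timp3, the matrix-bound inhibitor, had the highest mean CPM of the set, and any difference between the groups was within the spread. It stood at 1492, 3053 and 1184 CPM in Sept2C111A recipients 1, 2 and 3, against 2264, 2201 and 1105 CPM in control recipients 1, 2 and 3. Its log2 fold change was 0.04 (SE 0.47, edgeR adjusted p = 0.973), and the sign turned with the library left out, from -0.47 without Sept2C111A recipient 2 to 0.30 without Sept2C111A recipient 3.

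Reck was higher on average in Sept2C111A recipients, with overlap. It stood at 110.5, 150.1 and 90.9 CPM in Sept2C111A recipients 1, 2 and 3, against 70.8, 112 and 39.4 CPM in control recipients 1, 2 and 3. Control recipient 2 lay above 2 of the Sept2C111A libraries. The means were 117 ± 30.2 CPM in Sept2C111A recipients and 74.1 ± 36.5 CPM in control recipients (SD, n = 3 each), or 0.66 on the log2 scale (SE 0.39, edgeR adjusted p = 0.426, DESeq2 adjusted p = 0.399). Without control recipient 2 it was 1.09, and DESeq2 then called it (adjusted p = 0.0438), without control recipient 3 it was 0.36, and with control recipients 1 and 3 both left out it was 0.06. Control recipient 3, lowest in Reck and Timp3, also had the lowest smooth muscle sum, 5859 CPM against at least 15643 CPM in the other libraries, and the part of smooth muscle content in both genes was not tested.

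A2m was at the edge of detection. It had 7, 0 and 0 counts in Sept2C111A recipients 1, 2 and 3, against 2, 0 and 4 counts in control recipients 1, 2 and 3. For the counts of 0, the exact 95% Poisson interval reached 0.204 and 0.205 CPM in Sept2C111A recipients 2 and 3 and 0.194 CPM in control recipient 2. A2m did not pass the filter on low counts and so was not among the 14466 genes tested. In the fit without that filter its log2 fold change was 0.26 (SE 1.57, edgeR adjusted p = 0.951), an error too wide to give a direction. Its relatives Pzp, Mug1, Mug2 and A2ml1, which like it belong to the thioester-containing trap family, were at 1.28 CPM or less in every library. Cd109, the membrane-anchored member of that family, was the exception, at 117 ± 51.7 CPM in Sept2C111A recipients and 129 ± 32.0 CPM in control recipients (SD, n = 3 each, log2 fold change -0.13, SE 0.36).

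Levels of different genes can be set side by side only per length, and CPM per kb of the principal transcript (883 bases for Timp1, 3709 for Timp2, 4722 for Timp3, 5496 for Timp4, 4433 for Reck) was used for this. The short Timp1 transcript made up 12.2%, 14.5% and 8.33% of the summed TIMP level in Sept2C111A recipients 1, 2 and 3, against 56.2%, 20.3% and 47.1% in control recipients 1, 2 and 3. The groups did not overlap, with means of 11.7% ± 3.14 in Sept2C111A recipients and 41.2% ± 18.7 in control recipients (SD, n = 3 each). In Sept2C111A recipients Timp2 averaged 414 ± 37.9 and Timp3 404 ± 212 CPM per kb, which do not differ beyond their spread, followed by Timp1 at 115 ± 60.4, Reck at 26.4 ± 6.81 and Timp4 at 2.66 ± 1.02 (SD, n = 3). In control recipients Timp1 averaged 539 ± 321, Timp3 393 ± 138 and Timp2 308 ± 113 CPM per kb, again within their spread, followed by Reck at 16.7 ± 8.23 and Timp4 at 1.11 ± 0.126 (SD, n = 3). The summed TIMP level overlapped between the groups, at 936 ± 268 CPM per kb in Sept2C111A recipients and 1242 ± 246 CPM per kb in control recipients (SD, n = 3 each). Timp4, although higher in Sept2C111A recipients, was at most 0.529% of the sum in any library.

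**Figure D2:**
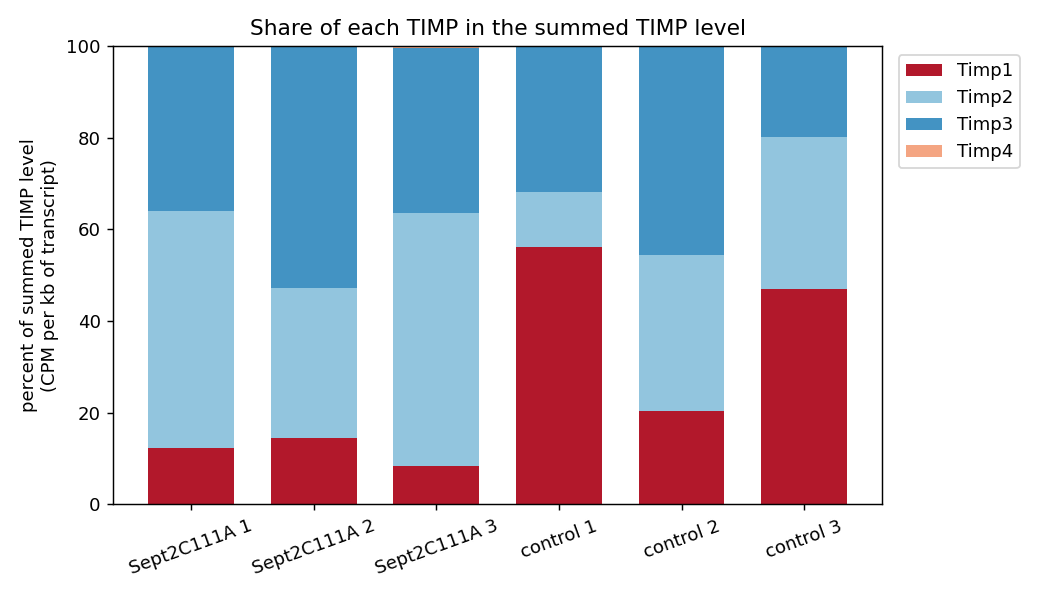
Share of each TIMP, in percent of the summed CPM per kb of the 4 TIMPs, in each library. Timp1 takes 8.33% to 14.5% in Sept2C111A recipients and 20.3% to 56.2% in control recipients, and Timp4, at most 0.529%, is too thin a band to see.

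The matrix metalloproteinases, which TIMPs block, were split in direction gene by gene, but their summed level was lower in Sept2C111A recipients. For the 21 with a row it was 1352 to 1477 CPM in Sept2C111A recipients and 1609 to 4181 CPM in control recipients, without overlap. Of 17 matrix metalloproteinases tested, 8 had a log2 fold change above 0 and 9 below, with a median of -0.10, edgeR passed 0 and DESeq2 passed 0 higher and 3 lower, Mmp8, Mmp9 and Mmp25 (2.9% of genes tested were lower by DESeq2). Mmp9, the gelatinase whose proenzyme TIMP1 binds, stood at 5.25, 1.66 and 8.01 CPM in Sept2C111A recipients 1, 2 and 3, against 892, 28.0 and 496 CPM in control recipients 1, 2 and 3, or -6.57 on the log2 scale (SE 1.38, DESeq2 adjusted p = 3.99e-08). On the same scale Mmp8, the neutrophil collagenase, differed by -3.48 (SE 0.95), and Mmp28, epilysin, by 0.61 (SE 0.18, DESeq2 adjusted p = 0.0700). Mmp8 stood at 0.473, 0.442 and 0.334 CPM in Sept2C111A recipients 1, 2 and 3, against 8.82, 0.578 and 4.75 CPM in control recipients 1, 2 and 3, so that control recipient 2 lay near the Sept2C111A libraries. Without control recipient 1 the log2 differences were -5.70 for Mmp9 and -2.64 for Mmp8, and with control recipients 1 and 3 both left out they were -2.49 and -0.47. By limma-voom they were -4.65 for Mmp9 and -1.94 for Mmp8. Mmp25 stood at 34.6, 0.999 and 2.57 CPM in control recipients 1, 2 and 3, so that control recipient 1 stood far above the rest. In Sept2C111A recipients 1, 2 and 3 Mmp25 stood at 0.946, 0.387 and 0.890 CPM, the first close to control recipient 2. DESeq2 gave no adjusted p to Mmp13, which stood at 107 CPM in control recipient 3 and far lower elsewhere, with overlapping groups. Mmp2 and Mmp14, the partners of TIMP2, were highest in control recipient 3, at 1393 and 1600 CPM. Mmp14 was at 573 CPM in control recipient 2 and at 152 to 265 CPM in the other 4 libraries, and the groups overlapped for both genes.

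Mmp9 was further below its control level than Timp1 was. The log2 ratio of Mmp9 to Timp1 counts was -4.18, -6.55 and -2.68 in Sept2C111A recipients 1, 2 and 3, against 0.25, -2.72 and 0.00 in control recipients 1, 2 and 3. The groups overlapped narrowly, since Sept2C111A recipient 3 was level with control recipient 2. The means were -4.47 ± 1.95 in Sept2C111A recipients and -0.82 ± 1.65 in control recipients (SD, n = 3 each), a difference of -3.65 that is given without a test.

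Of 12 ADAM and ADAMTS proteases tested, several of which TIMP3 blocks, DESeq2 passed 4 as lower, Adam8, Adam12, Adam19 and Adamts4 (2.9% of all tested genes), and edgeR passed 0. A log2 fold change below 0 was found for 11 (49.9% of all tested genes), with a median of -0.41. Of the 12, 6 lay wholly below control (11.9% of all tested genes). Adam15 at -0.01 (SE 0.17) and Adamts5 at -0.01 (SE 0.19) were among the 11 below 0. Adamts4, an aggrecanase, stood at 19.6 ± 5.54 CPM in Sept2C111A recipients and 82.7 ± 33.3 CPM in control recipients (SD, n = 3 each), or -2.08 on the log2 scale (SE 0.37, edgeR adjusted p = 0.316, DESeq2 adjusted p = 0.000101). On that scale Adam19, a membrane sheddase, differed by -1.37 (SE 0.27) and Adam8, a protease of leukocytes, by -3.81 (SE 0.80), and both were called by DESeq2. Adam8 stood at 22.6, 14.4 and 15.6 CPM in Sept2C111A recipients 1, 2 and 3, against 507, 58.6 and 173 CPM in control recipients 1, 2 and 3, and its log2 difference was -2.71 without control recipient 1. With control recipients 1 and 3 both left out, the log2 differences were -1.74 for Adam8, -1.23 for Adamts4 and -0.94 for Adam19. Adam17, the tumour necrosis factor convertase, was at 70.7 ± 9.27 CPM in Sept2C111A recipients and 90.5 ± 8.82 CPM in control recipients (SD, n = 3 each, log2 fold change -0.35, SE 0.15, edgeR adjusted p = 0.331).

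**Figure D3:**
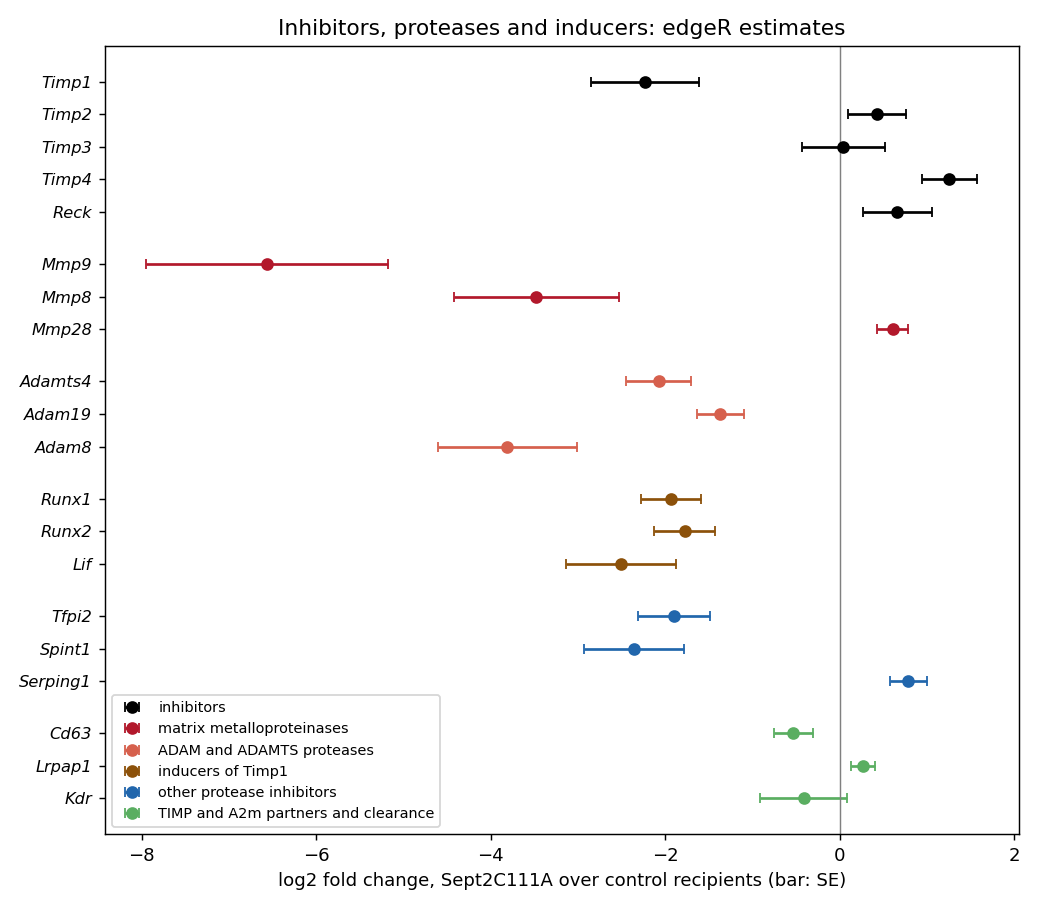
Log2 fold changes of Sept2C111A over control recipients with SE from edgeR, for the 5 tested inhibitors and the genes of smallest p in 5 companion lists. Timp1 lies at -2.23, near Adamts4 at -2.08 and Runx1 at -1.94, and Timp4 lies at 1.26 on the other side of 0.

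The list of signalling known to act on Timp1 held 20 genes: cytokines, their receptors, transcription factors and the feedback inhibitor Socs3. DESeq2 passed 3 as lower, Lif, Runx1 and Runx2 (2.9% of genes tested were lower by DESeq2), and edgeR passed 0. DESeq2 gave no adjusted p to Osm, Il1b and Il11. A log2 fold change below 0 was found for 16 of the 20 (49.9% of all tested genes), with a median of -1.18. Of the 20, 6 lay wholly below control (11.9% of all tested genes) and 1 wholly above (11.2%). Lif, leukaemia inhibitory factor, stood at 3.47, 5.91 and 4.06 CPM in Sept2C111A recipients 1, 2 and 3, against 43.3, 7.52 and 25.7 CPM in control recipients 1, 2 and 3. Runx1, a transcription factor of blood and wall cells, stood at 27.6, 29.7 and 16.9 CPM in Sept2C111A recipients 1, 2 and 3, against 108, 57.6 and 119 CPM in control recipients 1, 2 and 3 (log2 fold change -1.94, SE 0.34, DESeq2 adjusted p = 0.000101). Runx2, its relative in bone and calcifying vessels, differed by -1.78 on the log2 scale (SE 0.35, DESeq2 adjusted p = 0.000864). With control recipients 1 and 3 both left out, the log2 differences were -0.75 for Lif, -1.22 for Runx1 and -0.98 for Runx2, and that of Lif was -1.88 without control recipient 1 alone. The AP-1 factors went both ways and 0 passed by either tool. Fosl1 differed by -2.30 (SE 0.98), Fosl2 by -0.86 (SE 0.53), Junb by -0.65 (SE 0.31) and Fos by -0.03 (SE 0.37), while Jun differed by 0.22 (SE 0.31), Fosb by 0.36 (SE 0.58) and Jund by 0.54 (SE 0.20), all log2. Jund alone among them had groups that did not overlap.

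The start regions of Timp1 and Timp4, the members with non-overlapping groups, are shown because these are the pair that lay on opposite sides of control. The 250 bases before each start are from RefSeq on GRCm38.p6, the same assembly as mm10, on the gene's own strand, with capitals on GC boxes (GGGCGG, both strands), of which Timp4 had none.
Timp1 at chrX:20869916-20870165, plus strand: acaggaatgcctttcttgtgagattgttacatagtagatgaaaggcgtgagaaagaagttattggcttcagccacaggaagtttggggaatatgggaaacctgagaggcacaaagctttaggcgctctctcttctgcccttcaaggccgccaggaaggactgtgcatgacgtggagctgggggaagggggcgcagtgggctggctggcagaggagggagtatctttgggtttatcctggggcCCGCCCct
Timp4 at chr6:115252206-115252455, minus strand: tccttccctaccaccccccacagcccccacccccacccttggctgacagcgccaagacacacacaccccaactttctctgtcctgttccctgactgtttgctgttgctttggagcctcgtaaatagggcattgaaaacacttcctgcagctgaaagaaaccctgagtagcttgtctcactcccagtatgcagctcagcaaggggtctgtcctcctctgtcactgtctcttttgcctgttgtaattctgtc
Just after the annotated start of Timp1 lies the element TGAGTAA, known in mouse Timp1 as a site read by AP-1, in capitals here.
Timp1 at chrX:20870181-20870209, plus strand: cggtgggtggaTGAGTAAtgcgtccagga
Windows from 250 bases before to 50 after the start were searched on both strands, and 5 of the 6 members had one. TGAGTAA occurred in the window of Timp1 alone among them and in 2.68% of the 32851 windows of all genes. The AP-1 consensus TGANTCA (7.81% of windows) and the RUNX core TGTGGT (16.8%) occurred in none of the members' windows, and the GC box (35.7%) occurred in those of Timp1, Timp2, Timp3 and Reck. These are matches of letters, and no binding was measured.

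Of 7 receptors and clearance partners of the inhibitors, 0 passed by either tool. A log2 fold change above 0 was found for 3 and below 0 for 4, with a median of -0.02. Of the 7, 1 lay wholly above control and 1 wholly below (11.2% and 11.9% of all tested genes). Cd63, a cell-surface partner of TIMP1, stood at 399, 473 and 376 CPM in Sept2C111A recipients 1, 2 and 3, against 523, 521 and 762 CPM in control recipients 1, 2 and 3, or -0.53 on the log2 scale (SE 0.22, edgeR adjusted p = 0.334) with groups that did not overlap. Lrpap1, the chaperone of LRP1, was at 0.27 (SE 0.13) with every Sept2C111A library above control, and Kdr, the endothelial receptor that TIMP3 can block, at -0.41 (SE 0.50) with overlap, both as log2 fold changes. Lrp1 itself, which clears A2M and TIMP3, averaged 1267 ± 216 CPM in Sept2C111A recipients and 1436 ± 176 CPM in control recipients (SD, n = 3 each).

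Inhibitors of other protease classes were also split. Of 11 tested, 5 had a log2 fold change above 0 and 6 below. DESeq2 passed 1 higher, Serping1, and 3 lower, Slpi, Spint1 and Tfpi2 (1.1% and 2.9% of genes tested), and edgeR passed 0. Slpi stood at 1.79, 0.276 and 0.445 CPM in Sept2C111A recipients 1, 2 and 3, with overlapping groups. In control recipients 1, 2 and 3 Slpi stood at 62.7, 1.05 and 12.6 CPM. Serping1, the C1 inhibitor, stood at 1161, 916 and 1160 CPM in Sept2C111A recipients 1, 2 and 3, against 559, 583 and 732 CPM in control recipients 1, 2 and 3, or 0.79 on the log2 scale (SE 0.22, DESeq2 adjusted p = 0.00420). Tfpi2, a matrix-bound Kunitz inhibitor, differed by -1.90 (SE 0.41) and Spint1, which blocks epithelial serine proteases, by -2.36 (SE 0.58), both log2. Spint1 rested on only 22, 8 and 11 counts in Sept2C111A recipients 1, 2 and 3, against 109, 37 and 69 in control recipients 1, 2 and 3. With control recipients 1 and 3 both left out, the log2 difference of Spint1 was -1.39. Of the 11, 3 lay wholly above the controls and 2 wholly below (11.2% and 11.9% of all tested genes).

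Of the host genes, Syn1 stood at 2.84, 3.20 and 1.50 CPM in Sept2C111A recipients 1, 2 and 3, against 10.5, 3.15 and 5.64 CPM in control recipients 1, 2 and 3. It differed by -1.35 on the log2 scale (SE 0.52, edgeR adjusted p = 0.326), with overlapping groups. Syn2 reached 22.1 CPM in control recipient 1, the library with the least Timp4, and 1.73 to 6.40 CPM in the other 5. The log2 fold changes of Syn3 and Cep295nl were 0.53 (SE 0.27) and 0.21 (SE 0.36), with groups that did not overlap for Syn3. edgeR passed 0 of the 4 neighbours and DESeq2 0 of the 3 to which it gave an adjusted p.

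The genes whose log2 CPM over the 6 libraries were most like each member's were listed among 12753 others with a mean count of at least 50, as a description that rests on few points sharing group and library. For Timp1 they were Tnfrsf23 (Pearson r = 0.998), Srp72 (0.997) and Gxylt1 (0.997). Of these Tnfrsf23, a decoy receptor for TRAIL in the mouse, had a similar log2 fold change, -2.14, at a lower level. Tnfrsf23 stood at 5.17 to 17.8 CPM in Sept2C111A recipients and 21.3 to 78.4 CPM in control recipients. For Timp4 they were Zfp808 (0.996), Bckdk (0.996) and Bbs2 (0.994), whose log2 fold changes of 0.56, 0.34 and 0.69 were smaller. Timp3 was most like Arntl2, Tgfb2 and Bdnf (0.993 to 0.997), Timp2 most like Serinc3, Crot and Macroh2a2 (0.993 to 0.996), and Reck most like Tpd52l1, Pam and Sec62 (0.995 to 0.996). Tgfb2, a transforming growth factor of the wall, stood at 76.3, 178 and 57.8 CPM in Sept2C111A recipients 1, 2 and 3, against 123, 122 and 61.5 CPM in control recipients 1, 2 and 3, the same order of libraries as Timp3 but for its lowest pair.

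**Figure D4:**
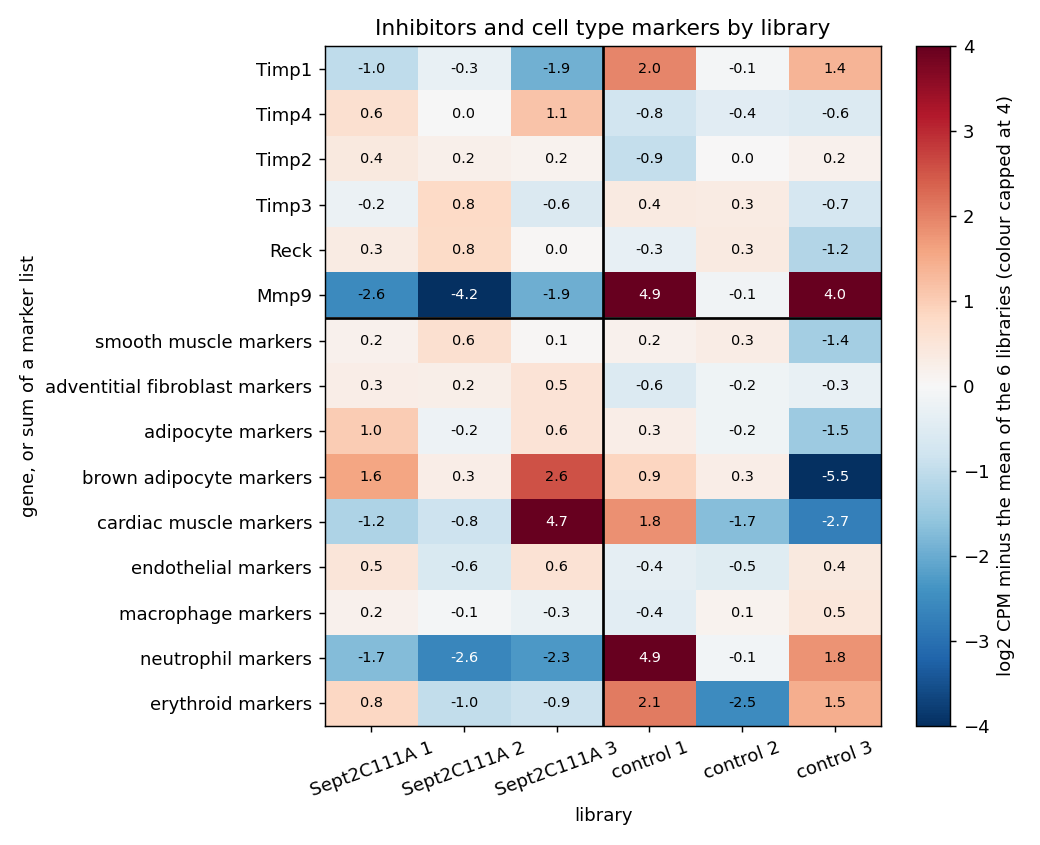
Log2 CPM of inhibitors and Mmp9, and of summed cell type markers, relative to the mean of the 6 libraries (red above, blue below, colour capped at 4 either way). Timp1 is lowest in Sept2C111A recipient 3 at -1.92 and highest in control recipient 1 at 1.95, where neutrophil markers stand at 4.95, and Timp4 is highest in Sept2C111A recipient 3 at 1.15, where cardiac markers stand at 4.67.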

How the data were processed

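RNA of aortas was sequenced in 6 libraries after TRIzol extraction and oligo(dT) capture, per the labels' protocols. Each deposited file holds unnormalised expected counts by gene symbol. The submitters' processing notes name RSEM 1.3.1, Bowtie2, DESeq2 1.4.5 and mm10. Annotation and strandedness were not given in the sources used here. Because RSEM splits ambiguous reads, 34.6% to 35.9% of values per library were fractional. One file of the Sept2C111A group, recipient 3, carried another library number in its heading, so the assignment in GEO's file record was followed.

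Counts were rounded and fitted in R 4.3.3 with edgeR 4.0.16 (two-sided quasi-likelihood F test, TMM, filterByExpr with minimum count 10, 14466 genes, Benjamini-Hochberg over all of them, adjusted p under 0.05 passing). CPM use the TMM-scaled totals of tested genes. Each SE is the absolute log2 fold change over the square root of F. DESeq2 1.42.0 on the same genes and limma 3.58.1 (voom) were alternatives. Library totals were 17082719 to 20494928, and counting intervals are exact Poisson. Scripts were tested on simulated data. Ratios used a prior count of 0.5 and likeness a prior count of 2. Replicates of a group were not duplicates of each other (chi-square per degree of freedom at least 50.2).

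The members and the 7 pathway and 14 marker lists were chosen with earlier results of these data known. Named genes are the members, the 3 genes of smallest p per pathway list and every neighbour with a row. Further genes (Mmp2, Mmp13, Mmp14, Mmp25, Adam12, Adam17, Slpi, Lrp1, Adam15, Adamts5, Osm, Il1b, Il11, Socs3, the AP-1 factors, Myh6, Ly6g, Dcn, Cd34, Clec3b, and the weak relatives of A2m) were named after their values were seen. Coordinates and coding regions are from GENCODE vM21, promoters from RefSeq.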

Additional observations from a re-analysis of the deposited data

How the results depend on the processing

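edgeR's count of 0 genes passing held under the other scalings and filters, limma-voom, each fit without 1 library, and the fit without control recipients 1 and 3, which was added after the data were seen. DESeq2 called 575 genes. By DESeq2, Timp1 had a log2 fold change of -2.23 and Timp4 of 1.25, both past the threshold. The log2 fold change of Timp3 turned negative under limma-voom (-0.25), the fit with the replicate block (-0.00893) and the fit without control recipients 1 and 3 (-0.20), and without single libraries it ran from -0.47 to 0.30. Without single libraries, the log2 fold changes ran from -2.69 to -1.73 for Timp1, 0.16 to 0.65 for Timp2, 0.96 to 1.51 for Timp4 and 0.36 to 1.09 for Reck. Across the same fits they ran from -1.59 to 0.90 for Syn2, -0.51 to 0.15 for Cd109 and -0.79 to 0.13 for Kdr. The signs of Syn2 (0.90 without control recipient 1, 0.61 without control recipients 1 and 3), Cd109 (0.02 without control recipient 2, 0.15 without Sept2C111A recipient 3) and Kdr (0.13 without control recipient 3) also turned. The cause was not tested.

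Replicate numbers were not treated as pairs: deviations of same-numbered libraries correlated at 0.01, 0.15 and -0.17, and not every library correlated best with its own number. So few correlations cannot exclude a pairing. With the replicate block 0 genes passed, and the log2 fold change of Timp4 was 1.19. The SE was smaller with the block than without it for Reck (0.21 against 0.39) and Timp3 (0.35 against 0.47). It was larger for Timp1 (0.74 against 0.62), Timp2 (0.38 against 0.34) and Timp4 (0.33 against 0.32). The Timp1 to Timp4 difference was -3.31 with a prior count of 5, and the Timp1 share differed by -33.0 percentage points on merged exon lengths, a choice made after seeing the data, against -29.5 on principal transcripts. Timp4 rests on 96 to 365 counts a library, and its counting intervals in the 3 Sept2C111A libraries did not overlap, so the spread between those libraries exceeded counting error. A2m was fitted only without the filter on low counts, with a log2 fold change of 0.26 (SE 1.57).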
